A study of Mus musculus with 3 samples.

Results

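The 10 genes described here were Tyr, Tyrp1, Dct, Pmel, Mlana, Slc45a2, Oca2, Gpr143, Mc1r and Mitf, chosen by name as genes of the melanosome and of pigment making, and they were 10 of the 36530 features in the count tables. Their messenger RNA was measured in 12670 single cells of 3 mouse melanomas, 1 labelled Untreated, 1 labelled Vemu Regressed and 1 labelled Vemu Progressed, called here the untreated, regressed and progressed tumor. Vemurafenib blocks the mutant Braf kinase, so the regressed and progressed tumors came from treated animals and the untreated one did not. All 3 were tumors of a genetically engineered model on the C57BL/6 background, in which Cre recombinase fused to an estrogen receptor (CreER) is driven by the tyrosinase promoter, and in which 4-OH tamoxifen on the skin switches on Braf LSL.V600E. Some animals of the study also carried Rosa26 LSL.tdTomato, a red reporter that Cre switches on. Which animals these were and how old they were at sampling is not given in the sources used here. All groups thus shared the Braf allele and the driver, and that driver is itself the promoter of a gene described here, so by design only cells in which it was once active carried the recombined allele.

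Melanocytes make melanin in melanosomes, organelles related to the lysosome, and hand them on to keratinocytes. Tyrosinase (Tyr) catalyses the first steps from tyrosine, dopachrome tautomerase (Dct) and tyrosinase-related protein 1 (Tyrp1) act further along towards eumelanin, the amyloid protein Pmel forms the fibrils on which melanin is laid down, and Mlana works with it in melanosome maturation. Slc45a2 and Oca2 are melanosome membrane transporters, Gpr143 is a receptor within the melanosome membrane, and Mc1r is the melanocortin receptor of the cell surface. Mitf is the transcription factor that drives this program in melanocytes, and it is also used in mast cells and osteoclasts. Because loss of this program is a known form of dedifferentiation in melanoma, the question was in which cells of each tumor these genes were still read out, and whether those were the cells that carried the transgene.

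The promoters of the 3 enzymes are shown because they carry the element through which Mitf is known to reach these genes, and because the levels of the enzymes and of Mitf are set side by side below. They come from RefSeq (GRCm38.p6) and run from 250 bases before to 50 bases after the annotated start, on the strand of the gene. Capitals mark TCATGTG, the core of the M-box, or its reverse complement CACATGA.
Tyr, chr7:87493463-87493762, minus strand: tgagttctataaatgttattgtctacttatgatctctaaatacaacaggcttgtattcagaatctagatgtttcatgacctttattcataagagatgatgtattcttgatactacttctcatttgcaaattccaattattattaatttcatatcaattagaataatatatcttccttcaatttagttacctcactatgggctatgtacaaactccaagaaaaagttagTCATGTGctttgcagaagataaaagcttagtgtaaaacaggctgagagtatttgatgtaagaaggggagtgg
Tyrp1, chr4:80833963-80834262, plus strand: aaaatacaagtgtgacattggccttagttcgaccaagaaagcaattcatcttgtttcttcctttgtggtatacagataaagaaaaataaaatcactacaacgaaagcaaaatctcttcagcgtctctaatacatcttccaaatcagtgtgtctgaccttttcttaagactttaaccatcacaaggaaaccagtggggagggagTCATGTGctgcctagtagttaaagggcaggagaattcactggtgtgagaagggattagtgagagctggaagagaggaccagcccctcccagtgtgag
Dct, chr14:118052197-118052496, minus strand: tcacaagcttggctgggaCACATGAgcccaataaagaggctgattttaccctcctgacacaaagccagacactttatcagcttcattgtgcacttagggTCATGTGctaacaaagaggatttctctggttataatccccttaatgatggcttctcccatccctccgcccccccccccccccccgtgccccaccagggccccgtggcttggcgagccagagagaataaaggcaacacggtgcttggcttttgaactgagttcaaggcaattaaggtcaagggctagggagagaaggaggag
The core lay 22 bases before the annotated start in Tyr and 47 bases before it in Tyrp1. Dct held it at 2 places, 232 and 151 bases before the start. Mc1r held it once, at 52 bases. Oca2 held none, and neither did any of the 3 annotated Mitf promoters, which transcript-end counts cannot tell apart. A promoter was matched for 6 of the 10 genes, and Pmel, Mlana, Slc45a2 and Gpr143 were not matched. Searched on both strands, these letters stood in 3.77% of all 32851 RefSeq promoters of this length, and the shorter CATGTG that they contain stood in 14.2%.

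The untreated tumor gave 4095 cells, the regressed one 3726 and the progressed one 4849. Values are counts of unique molecular identifiers (UMIs), each standing for 1 captured RNA molecule, and levels are UMIs per 1000000 UMIs of the summed cells, written as counts per 1000000 (CPM). The kit reads transcript ends, so counts were not divided by gene length. Median depth was 2658 UMIs per cell in the regressed library against 4496 and 4566 in the untreated and progressed ones. The regressed library also stood apart in Xist, at 0.403 CPM against 1494 and 1735 CPM, and in 4 haemoglobin transcripts, which made up 2.17% of its UMIs against 0.145% and 0.00450%, so sex and blood RNA cannot be told apart from regression. Each group was 1 tumor, so there was no test between tumors, and all 95% intervals cover counting error only. Cluster names are those the authors deposited. They named the tumor clusters, Tumor1 and Tumor2, by transgene expression and formed all clusters from these same counts, so the level of a pigment gene in a cluster is a description. Tumor1 and Tumor2 without pigment-rich cells (defined below) held Schwann and glial lineage markers such as Sox10 and S100b at 1039 to 3762 CPM, against 172 to 250 CPM in stroma.

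The tumor clusters held few cells. There were 48 in the untreated tumor (44 Tumor1, 4 Tumor2), 410 in the regressed (61 and 349) and 160 in the progressed one (156 and 4). Regressed Tumor2 cells were shallow, with a median of 768 UMIs, and 244 of the 410 regressed tumor cells held under 1000 UMIs. The summed UMIs of tumor cells were 263922, 596002 and 839624.

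Pigment genes were higher in Tumor2 than in Tumor1 as clusters, through a few Tumor2 cells. The 10 genes together reached 49.9 CPM (24.9 to 89.2) in untreated, 86.1 (45.8 to 147) in regressed and 41.0 (28.4 to 57.4) in progressed Tumor1. The same sum reached 2335 CPM (2195 to 2481) in the 349 regressed Tumor2 cells, but the 342 of these that held under 10 pigment UMIs came to 86.5 CPM (60.5 to 120), level with regressed Tumor1. In the 4 untreated Tumor2 cells Dct alone stood at 2817 CPM (2339 to 3364), and in the 4 progressed ones at 20484 CPM (17933 to 23296). Most of what Tumor1 held was Mitf, with 8 of 11 pigment UMIs in the untreated, 8 of 13 in the regressed and 16 of 34 in the progressed tumor.

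**Figure D1:**
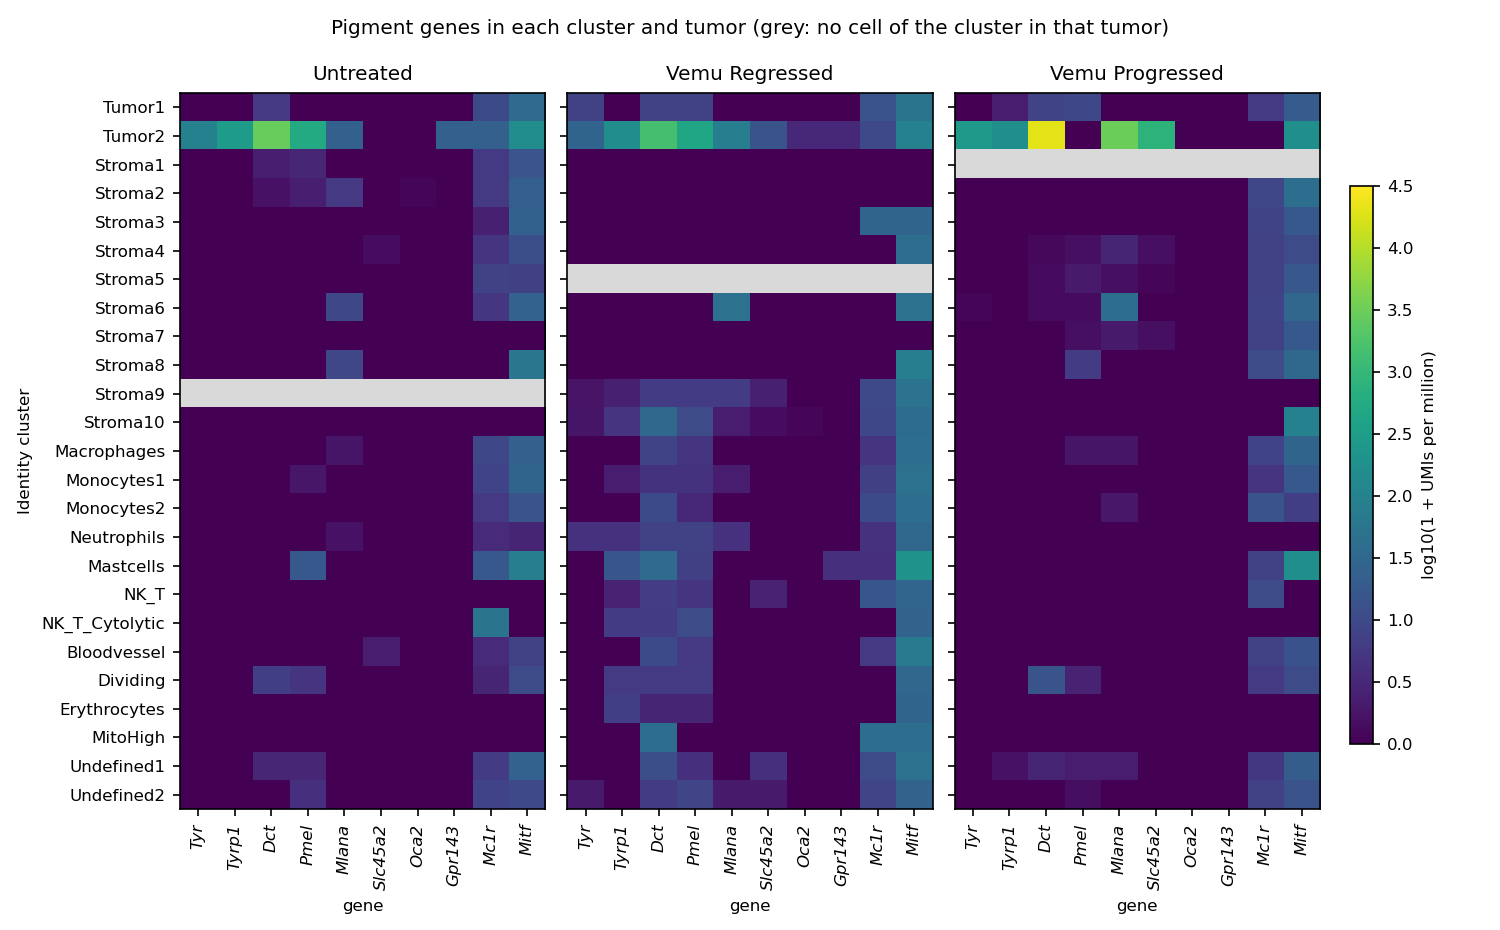
Level of each of the 10 genes (columns) in each Identity cluster (rows) of the untreated, regressed and progressed tumor (panels), as log10 of 1 plus CPM by color, with grey where a tumor had no cell of a cluster. Dct reaches 2817, 1495 and 20484 CPM in the Tumor2 row of the untreated, regressed and progressed tumor, Pmel has 0 UMIs in progressed Tumor2, and Mitf and Mc1r are found across most rows.

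The enzymes of melanin synthesis come first, with positions from GENCODE vM21 on GRCm38, the build of the files. Tyr (chromosome 7, 87424771 to 87493512) was sparse, with 4 UMIs in untreated tumor cells, 13 in regressed and 3 in progressed ones, or 15.2 CPM (4.13 to 38.8), 21.8 CPM (11.6 to 37.3) and 3.57 CPM (0.737 to 10.4). For Tyr the untreated interval overlaps both others, and only the regressed and progressed intervals are apart. Tyrp1 (chromosome 4, 80834123 to 80851736) stood at 49.3 CPM (26.2 to 84.2), 122 CPM (96.0 to 154) and 3.57 CPM (0.737 to 10.4), from 13, 73 and 3 UMIs. Dct (chromosome 14, 118012790 to 118052246), the gene with the most UMIs in tumor cells, stood at 466 CPM (387 to 556), 1117 CPM (1034 to 1206) and 283 CPM (249 to 322), from 123, 666 and 238 UMIs. Tyrp1 and Dct were thus highest in the regressed and lowest in the progressed tumor, with intervals that do not overlap. The log2 ratio of progressed to untreated CPM was -3.79 for Tyrp1 (-6.24 to -1.92) and -0.72 for Dct (-1.04 to -0.39).

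The structural proteins of the melanosome went apart from each other. Pmel (chromosome 10, 128695888 to 128720238) stood at 90.9 CPM (58.3 to 135) in untreated, 336 CPM (291 to 385) in regressed and 8.34 CPM (3.35 to 17.2) in progressed tumor cells, from 24, 200 and 7 UMIs. Mlana (chromosome 19, 29697541 to 29708447) stood at 3.79 CPM (0.0959 to 21.1), 62.1 CPM (43.7 to 85.6) and 41.7 CPM (29.0 to 58.0), from 1, 37 and 35 UMIs. Pmel was therefore lowest in the progressed tumor and Mlana in the untreated one, and all 35 progressed Mlana UMIs came from 1 cell.

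Transporters and receptors were near the limit of detection. Slc45a2 (chromosome 15, 11000721 to 11029233) had 0 UMIs in untreated tumor cells, 6 in regressed and 9 in progressed ones. Oca2 (chromosome 7, 56239593 to 56536518) had 0, 1 and 0 UMIs and Gpr143 (chromosome X, 152781921 to 152808651) 1, 1 and 0. A count of 0 in the untreated tumor cells allows up to 3 UMIs, or 11.4 CPM, so a difference in these 3 genes was not detectable at this depth. Mc1r (chromosome 8, 123407082 to 123410744), whose annotated span overlaps Gm20388 on the same strand, stood at 11.4 CPM (2.34 to 33.2), 10.1 CPM (3.69 to 21.9) and 4.76 CPM (1.30 to 12.2), from 3, 6 and 4 UMIs, and these intervals overlap.

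Mitf (chromosome 6, 97807002 to 98021360) is the factor upstream of these genes. It stood at 56.8 CPM (31.8 to 93.7) in untreated, 82.2 CPM (60.8 to 109) in regressed and 21.4 CPM (12.7 to 33.9) in progressed tumor cells, from 15, 49 and 18 UMIs. The log2 ratio of regressed to untreated was 0.53 (-0.33 to 1.47), which includes 0, and that of progressed to regressed was -1.94 (-2.81 to -1.13). For comparison, the latter ratio was -5.33 (-6.66 to -4.26) for Pmel, -5.10 (-7.41 to -3.50) for Tyrp1, -1.98 (-2.20 to -1.76) for Dct and -0.57 for Mlana. That of Mitf was close in value to that of Dct, but the progressed UMIs of these genes lay in different cells. Of the 238 progressed Dct UMIs, 232 came from 1 cell with 0 Mitf UMIs, and all 18 Mitf UMIs came from others. The log2 ratio of progressed to untreated was -1.41 for Mitf.

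**Figure D2:**
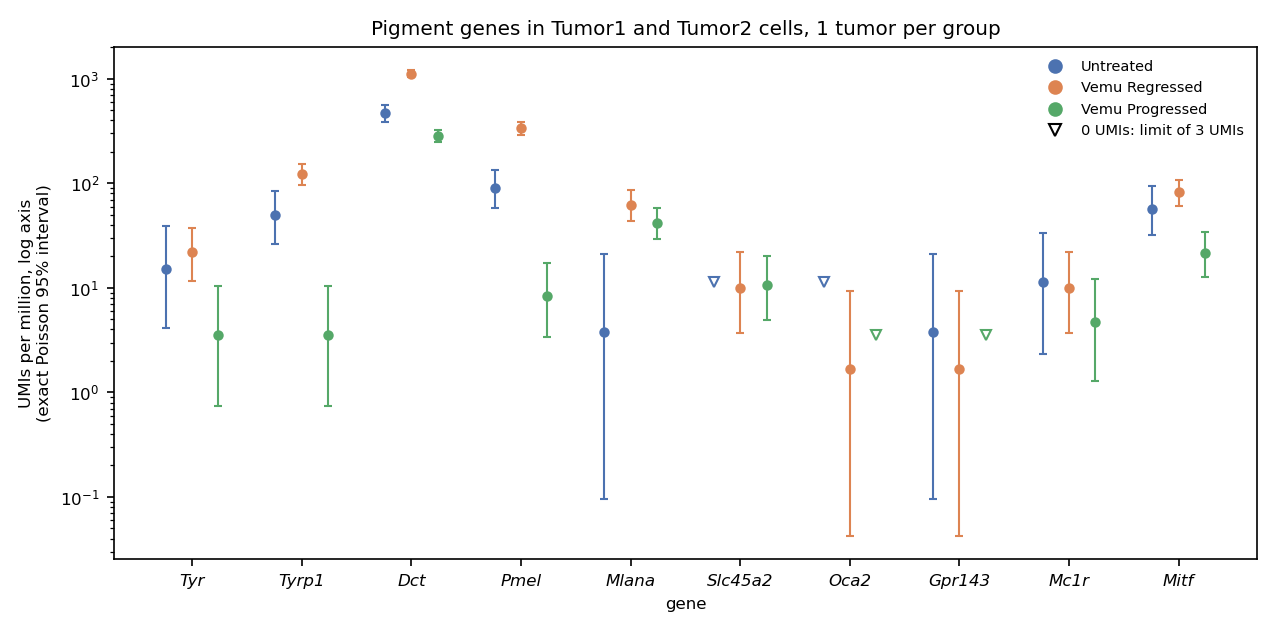
CPM of each of the 10 genes on a log axis in the summed Tumor1 and Tumor2 cells of the untreated (48 cells), regressed (410) and progressed tumor (160), with exact Poisson 95% intervals and open triangles at the limit of 3 UMIs for a count of 0. Dct falls from 1117 CPM in the regressed to 283 CPM in the progressed tumor and Pmel from 336 to 8.34 CPM, while Mlana sits at 62.1 and 41.7 CPM.

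Counted over the genes, 4 of the 6 with at least 10 UMIs in the 2 tumors (Tyrp1, Dct, Pmel and Mlana) were at least 2-fold higher in regressed than in untreated tumor cells and 0 were lower, against 17.7% of all 9422 such features higher and 8.47% lower. In progressed against regressed tumor cells, 0 of 8 were higher and 6 lower (Tyr, Tyrp1, Dct, Pmel, Mc1r and Mitf), against 6.94% higher and 14.7% lower of 10562 features. The interval of Mc1r in that ratio, -3.35 to 0.997, includes 0. In progressed against untreated tumor cells, 1 of 5 was higher (Mlana) and 3 were lower (Tyrp1, Pmel and Mitf), against 11.2% higher and 8.6% lower of 9628 features. The median log2 ratio of the counted genes was 1.29 in regressed against untreated, -1.96 in progressed against regressed and -1.41 in progressed against untreated, beside medians over all features of 0.13, -0.11 and 0.02. These counts rest on very few cells, as follows.

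Nearly all pigment UMIs of tumor cells lay in 10 cells. Cells with at least 10 UMIs of the 10 genes are called pigment-rich here, which names a range of values and not a cell type. The untreated tumor had 2 among 48 tumor cells, the regressed one 7 among 410, and the progressed one 1 among 160. They held 169 of 184 pigment UMIs in untreated (91.8%, 86.9 to 95.4), 1003 of 1052 in regressed (95.3%, 93.9 to 96.5) and 281 of 317 in progressed tumor cells (88.6%, 84.6 to 91.9). None of the 618 tumor cells held 5 to 9 pigment UMIs. The highest values below 10 were 4, 2 and 4 UMIs and the lowest above it were 61, 14 and 281. Another 4 pigment-rich cells, all of the regressed tumor, lay in clusters that were not named tumor, 3 in Stroma10 and 1 in Mastcells, and held 17.3% (14.9 to 19.8) of the pigment UMIs outside the tumor clusters.

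The untreated pigment-rich cells were 2 Tumor2 cells with 108 and 61 pigment UMIs. Dct made up 86 and 35 of these, Pmel 7 and 17, Tyrp1 6 and 7, and Mitf 6 and 1. Those cells therefore gave 121 of the 123 Dct UMIs, 24 of the 24 Pmel UMIs and 13 of the 13 Tyrp1 UMIs of untreated tumor cells.

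In the regressed tumor the 7 pigment-rich Tumor2 cells held 299, 270, 247, 77, 64, 32 and 14 pigment UMIs. Dct UMIs in these cells, in the same order, were 200, 161, 170, 57, 40, 24 and 11, Pmel UMIs were 43, 78, 47, 12, 13, 3 and 0, and Tyrp1 UMIs were 25, 17, 18, 3, 3, 2 and 3. Mlana had 21, 3, 6, 1, 3, 2 and 0 UMIs, and Mitf 3, 7, 2, 4, 3, 0 and 0. Dct led in every one of them, and 3 cells stood well above the other 4. They were deeper than most of their cluster, at 2205 to 6393 UMIs in all against a median of 768 for regressed Tumor2.

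The pigment-rich cells outside the tumor clusters had the same leading gene. The 3 Stroma10 cells held 75, 42 and 30 pigment UMIs, of which Dct made up 58, 31 and 21, Pmel 8, 8 and 4, and Tyrp1 3, 1 and 3. Their 6 fibroblast markers (Col1a1, Col3a1, Dcn, Pdgfra, Fap and Lum) summed to 2034 CPM, 10 UMIs, against 31055 CPM in other Stroma10 cells, with Col1a1, Pdgfra and Fap at 0. The Mastcells cell held 17 pigment UMIs (9 Dct, 4 Tyrp1 and 4 Mitf) beside 219 UMIs of Cpa3, the mast cell carboxypeptidase, and 1024 UMIs of the 5 mast cell markers. Without that cell the mast cell markers in pigment-rich cells came to 11 UMIs, or 205 CPM. Doublets were not called, and the part of mixed droplets in these 4 cells was not tested.

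The single progressed pigment-rich cell had another make-up. Of its 281 pigment UMIs, 232 were Dct, 35 Mlana, 9 Slc45a2, 3 Tyr and 2 Tyrp1, with 0 for Pmel and 0 for Mitf. Dct was thus 100% of the Dct and Pmel UMIs in it (98.4 to 100, 232 UMIs), against 77.2% (74.2 to 79.95) in the regressed and 83.4% (76.4 to 89.1) in the untreated pigment-rich tumor cells. It held 88.6% of the pigment UMIs of progressed tumor cells, so the progressed levels of Dct, Mlana and Slc45a2 given above are in the main the values of 1 cell with 3884 UMIs.

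**Figure D3:**
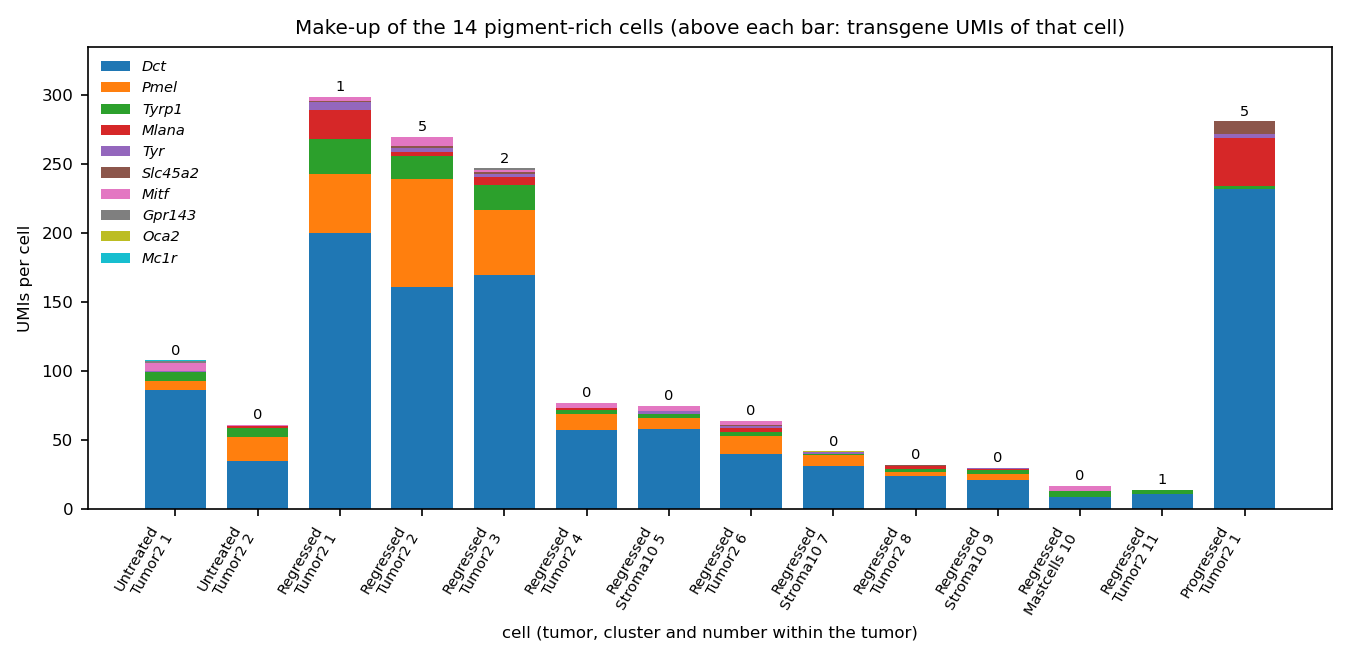
UMIs of each of the 10 genes in the 14 pigment-rich cells (stacked bars, named by tumor, cluster and number), with the transgene UMIs of the cell above the bar. Dct is the largest piece of each bar, Pmel is missing from the progressed cell, and 9 of the 14 cells have 0 transgene UMIs.

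Without the pigment-rich cells the levels of the tumors lay closer together. The 10 genes summed to 60.6 CPM (33.9 to 99.9) in untreated, 86.3 CPM (63.9 to 114) in regressed and 43.1 CPM (30.2 to 59.6) in progressed Tumor1 and Tumor2 cells, from 15, 49 and 36 UMIs. The log2 ratio of the sum was 1.34 (1.11 to 1.57) in regressed against untreated with these cells and 0.51 (-0.35 to 1.45) without them. In progressed against regressed it was -2.23 (-2.41 to -2.04) with and -1.003 (-1.67 to -0.35) without, and in progressed against untreated -0.88 (-1.15 to -0.61) with and -0.49 (-1.40 to 0.48) without. Only the middle of these 3 ratios kept an interval that leaves out 0. Stroma without pigment-rich cells held the sum at 66.0 CPM (59.9 to 72.6) in the regressed and 41.4 CPM (38.5 to 44.6) in the progressed tumor. Immune cells held it at 75.7 CPM (66.0 to 86.4) and 41.9 CPM (34.9 to 49.9). The sum was thus lower in the progressed tumor in these compartments too. In both of these tumors their intervals overlap those of the tumor cells without pigment-rich cells. This did not hold in the untreated tumor, where stroma stood at 25.4 CPM (22.9 to 28.2) and immune cells at 22.9 CPM (18.7 to 27.7). Both intervals lie below that of the untreated tumor cells. The sum was also higher in progressed than in untreated stroma and immune cells, which the tumor cells did not show.

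Other genes of the lineage were looked for in the same cells. Pigment-rich cells held Pax3, a factor upstream of Mitf, at 519 CPM (32 UMIs in 11 of 14 cells) against 16.4 CPM in other tumor cells. Kit, the receptor for stem cell factor on which melanoblasts depend, stood at 308 CPM (19 UMIs in 10 cells) against 4.24 CPM. Gpnmb, a glycoprotein of melanosomes and lysosomes, stood at 1231 CPM against 7.87 CPM, and Cd63, the tetraspanin that takes part in Pmel sorting, at 4407 CPM against 968 CPM. Cited1, a transcriptional co-regulator known from melanocytes, stood at 324 CPM against 1.82 CPM and Met, the hepatocyte growth factor receptor, at 113 CPM against 1.21 CPM. These values are pooled over tumors, and most pigment-rich cells were regressed ones. Within the regressed tumor clusters Sox10, a factor of Schwann cells and melanocytes, stood at 245 CPM (98.6 to 506) in pigment-rich and 548 CPM (489 to 612) in other cells. In the untreated ones it stood at 550.1 CPM (252 to 1044) and 707 CPM (606 to 820), and both pairs of intervals overlap. Mcam, an adhesion molecule, had 0 UMIs in the regressed pigment-rich tumor cells, with an upper bound of 129 CPM, against 481 CPM (426 to 542) in the others. The Schwann and glial markers together stood at 5407 CPM (3347 to 8265) in the progressed pigment-rich cell, against 3762 CPM (2500 to 5438) in other progressed Tumor2 cells and 2937 CPM in Tumor1. Endothelial markers were at 0 in all 14 cells, and the keratinocyte markers came to 48 UMIs, all in the regressed cells, at 1157 CPM there against 1125 CPM in other regressed Tumor1 and 1073 CPM in other regressed Tumor2 cells.

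Lists of melanosome transport genes and of lineage regulators were counted in tumor cells in the same way. Of 32 transport and biogenesis genes, 24 had at least 10 UMIs in regressed and untreated tumor cells, and 4 were at least 2-fold higher in the regressed ones (Hps4, Bloc1s3, Lyst and Vps33a) and 2 lower (Rab38 and Rab32). These 6 ratios each had an interval that includes 0, and over all features 17.7% were higher and 8.47% lower. In progressed against regressed tumor cells, 8 of 25 were lower and 1 was higher, against 14.7% and 6.94% of all features. Gpnmb stood at 11.9 CPM in progressed against 78.9 CPM in regressed tumor cells, and Slc24a5, an ion exchanger of the melanosome pathway, at 13.1 against 75.5 CPM. The 7 regressed pigment-rich Tumor2 cells held 44 of the 47 regressed Gpnmb UMIs and 10 of the 45 of Slc24a5. Without pigment-rich cells Gpnmb stood at 4.79 CPM (1.30 to 12.3) in progressed and 5.29 CPM (1.09 to 15.4) in regressed tumor cells, with intervals that overlap. Cd63 stood at 540 against 1690 CPM, and Lyst, a regulator of lysosome-related organelles, at 9.53 against 41.9 CPM. Ap3d1, Bloc1s3, Bloc1s2 and Mlph were the other lower ones, and Tpcn2 was the higher one with an interval of -0.71 to 3.74. In progressed against untreated tumor cells, 7 of 24 were lower, among them Gpnmb, Cd63 and Slc24a5, and 1 was higher, against 8.6% and 11.2% of all features. The medians of this list were 0.18, -0.54 and -0.47, beside 0.13, -0.11 and 0.02 over all features.

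Of 29 upstream regulators and receptors, 28 had a row. In regressed against untreated tumor cells 4 of 21 were higher (Lef1, Ednrb, Tfeb and Rarb) and 0 lower, against 17.7% and 8.47% of all features, and Ednrb, the endothelin receptor of melanoblasts, stood at 47.0 CPM against 11.4 CPM. In progressed against regressed tumor cells 8 of 21 were lower and 1 was higher, against 14.7% and 6.94% of all features. Kit had 15 UMIs in regressed and 0 in progressed tumor cells and was therefore at least 7.04-fold lower in the latter, against a floor of 3 UMIs. Pax3 stood at 15.5 CPM in progressed against 58.7 CPM in regressed tumor cells, Ednrb at 13.1 against 47.0 CPM and Lef1, a factor of Wnt signalling, at 5.96 against 31.9 CPM. Bace2, a protease that cleaves Pmel, stood at 10.7 against 36.9 CPM. The same 7 cells held 23 of 35 regressed UMIs of Pax3, 8 of 15 of Kit, 16 of 22 of Bace2, 7 of 28 of Ednrb and 1 of 19 of Lef1. Without pigment-rich cells Pax3 stood at 14.4 CPM (7.42 to 25.1) in progressed and 21.1 CPM (10.9 to 36.9) in regressed tumor cells, with intervals that overlap. Sox9, Kitl and Cited1 were the other lower ones. Mcam was the higher one, at 952 CPM against 458 CPM. In progressed against untreated tumor cells 3 of 19 were lower (Sox9, Cited1 and Bace2) and 1 was higher (Rarb), against 8.6% and 11.2% of all features. The medians of the list were 0.11, -0.49 and -0.07.

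The relation to the transgene was then read cell by cell. The transgene is the sum of the features tdTomato and tWPRE, of which the former gave 2, 8 and 12 UMIs in tumor cells (untreated, regressed, progressed) and the latter 667, 802 and 3547, so the sum is nearly tWPRE alone. The labels do not describe tWPRE. Tumor cells other than the pigment-rich ones held the transgene at 2702 CPM (2501 to 2915) in the untreated, 1412 CPM (1315 to 1513) in the regressed and 4253 CPM (4114 to 4395) in the progressed tumor. Stroma held it at 40.3, 36.8 and 42.4 CPM and immune cells at 55.8, 61.8 and 71.1 CPM. This low level in cells of other lineages is read as background here, and a transgene UMI was found in 17.1%, 10.9% and 17.6% of stromal cells.

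Summed over the tumors, pigment-rich cells held the transgene at a lower level than other tumor cells. The 14 cells held 14 transgene UMIs among 61715 UMIs, or 227 CPM (124 to 381), which came from 5 cells with 5, 5, 2, 1 and 1 UMIs, and 9 cells had none. Within the untreated tumor clusters the pigment-rich cells had 0 transgene UMIs of 16361, against 669 in 46 other cells, and were at least 14.7-fold lower. In the regressed tumor clusters they held 9 UMIs, 315 CPM (144 to 599), a log2 ratio to other tumor cells of -2.16 (-3.30 to -1.23), and in the progressed one 5 UMIs, 1287 CPM (418 to 3004), a log2 ratio of -1.72 (-3.35 to -0.50). The direction was the same in the 3 tumors, but the other progressed tumor cells were mostly Tumor1. The authors also named these clusters by transgene expression, so a high level in their other cells follows from the naming. The contrast is therefore a description. The 3 progressed Tumor2 cells that were not pigment-rich held the transgene at 1747 CPM (930 to 2987), an interval that overlaps that of the pigment-rich Tumor2 cell, and the 342 such regressed cells at 1376 CPM (1266 to 1493). In the regressed and progressed tumors the level in these cells lay above the background of stroma, and in the untreated tumor the upper bound of the interval, 225 CPM, did not separate it from that background. By share of cells the regressed tumor clusters showed no such difference. A transgene UMI was found in 4 of the 7 pigment-rich cells (57.1%, 18.4 to 90.1) and in 52.1% (47.1 to 57.1) of the others. Their median depths were 4130 and 830 UMIs. The 4 pigment-rich cells of other clusters had 0 transgene UMIs of 12939, with an upper bound of 285 CPM that did not separate them from background either. By contrast the 2 untreated Tumor2 cells that were not pigment-rich held 75 transgene UMIs, with 37.5 as the median.

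**Figure D4:**
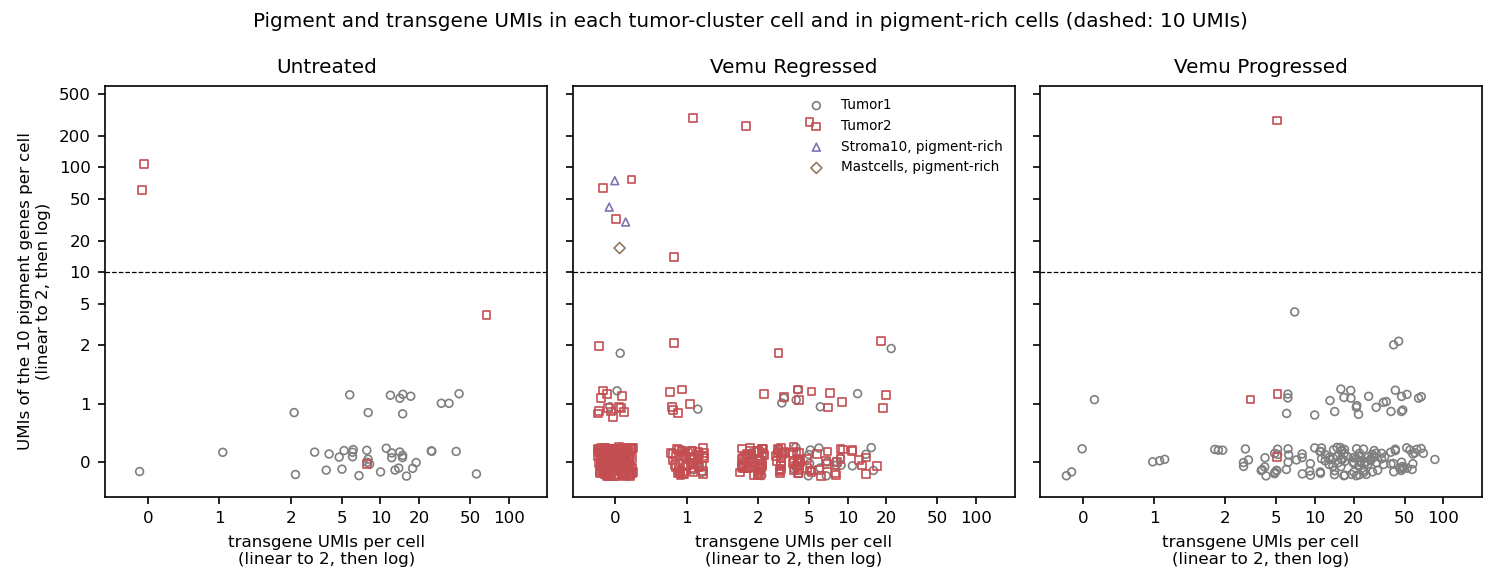
Each point is 1 cell of Tumor1 or Tumor2, or a pigment-rich cell of Stroma10 or Mastcells, with its transgene UMIs on the x axis and its UMIs of the 10 genes on the y axis (both linear to 2 and log above, points spread at random by up to 0.25). Cells above the dashed line at 10 pigment UMIs have 0 to 5 transgene UMIs, while cells with more transgene UMIs stay at 0 to 4 pigment UMIs.

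Over all tumor cells the pair of measures was close to unrelated by rank. Spearman's rho between pigment CPM and transgene CPM was 0.03 over 48 untreated, 0.002 over 410 regressed and 0.006 over 160 progressed tumor cells. Of these cells 34, 360 and 128 held 0 pigment UMIs, and such ties limit rho. Pearson's r was -0.36, -0.05 and -0.10 in the same order. Without pigment-rich cells rho was 0.21, 0.02 and 0.03. These cells share a library within each tumor, and both measures follow depth, with rho of 0.68, 0.39 and 0.75 between transgene UMIs and total UMIs and 0.32, 0.35 and 0.19 between pigment UMIs and total UMIs, so the values are given as a description. A pigment UMI was found in 12 of 45 untreated tumor cells with a transgene UMI (26.7%, 14.6 to 41.9) and in 2 of 3 without one, in 31 of 214 regressed cells with one (14.5%, 10.1 to 19.9) and in 19 of 196 without (9.69%, 5.94 to 14.7), and in 31 of 156 progressed cells with one (19.9%, 13.9 to 27.0) and in 1 of 4 without. The differences in share were -40.0 percentage points (-69.2 to 8.10), 4.79 (-1.63 to 11.1) and -5.13 (-50.4 to 16.5), and each interval includes 0. Without Mitf the untreated difference was -57.8 points (-85.5 to -10.4), an interval that leaves out 0. It rests on the 3 cells without a transgene UMI, of which 2 are the pigment-rich cells described above. In cells thinned to 1000 UMIs the differences were -27.5 (-65.1 to 3.85), 0.09 (-10.5 to 10.1) and -7.74 points (-42.4 to 3.56), each with 0 in its interval. Outside the tumor clusters the same shares were 10.9% and 11.9% in the untreated, 25.9% and 18.1% in the regressed and 15.6% and 17.0% in the progressed tumor, where cells with a transgene UMI were also deeper, at medians of 5909, 3870 and 5922.5 UMIs against 4268, 2812 and 4257. After every cell was thinned to 1000 UMIs, the regressed shares outside the tumor clusters were 6.25% and 6.45%.

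Shares of cells with a UMI must be read against cells that should lack these genes. A UMI of Dct, Pmel or Tyrp1 was seen in 8.33% of untreated tumor cells (4 of 48) and in 0.799% of untreated stromal cells, at median depths of 4078 and 4654 UMIs. In the regressed tumor the share was 3.902% of tumor cells (16 of 410, median 832 UMIs) and 4.90% of stromal cells (94 of 1918, median 3151.5 UMIs), at depths too unlike for the shares to be compared. In the progressed tumor it was 8.12% (13 of 160) against 0.497% of stromal cells. Thinned to 1000 UMIs, the share in all tumor cells was 2 of 45 in the untreated, 9 of 166 in the regressed (5.42%, 2.51 to 10.04) and 3 of 155 in the progressed tumor, against 0.115%, 1.27% and 0.0294% of stroma. Without pigment-rich cells the thinned tumor cells with a UMI were 0 of 43, 2 of 159 and 2 of 154. The count of 0 of 43 allows up to 6.98% of cells with a UMI at this depth, and does not limit the share of cells that express these genes.

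Dct and Pmel RNA outside the tumor clusters was highest in the regressed tumor, which did not hold for Mlana (described below). Leaving out pigment-rich cells, Dct in all cells outside Tumor1 and Tumor2 stood at 0.593 CPM (0.316 to 1.01) in the untreated, 7.03 CPM (5.60 to 8.72) in the regressed and 1.19 CPM (0.807 to 1.69) in the progressed tumor. Pmel there stood at 1.05, 4.998 and 0.728 CPM. In regressed stroma and regressed immune cells the level of Dct was 7.48 CPM (5.51 to 9.91) and 6.25 CPM (3.70 to 9.88), and that of Pmel 5.30 and 4.51 CPM, and the intervals of the compartments overlap for Dct. Dct made up 58.5% (47.1 to 69.3) and 58.1% (39.1 to 75.5) of the Dct and Pmel UMIs in these 2 compartments and 77.2% (74.2 to 79.95) in the pigment-rich tumor cells of that tumor. The haemoglobin transcripts, which come from red blood cells, stood at 1601 CPM in regressed tumor cells against 45.5 CPM in untreated ones and 0 UMIs in progressed ones. The part of free RNA in the pigment counts was not tested.

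Dividing cells held the next trace. The 147 progressed cells of the cluster Dividing held 23 Dct UMIs in 10 cells, 13.6 CPM (8.64 to 20.5). Of these cells, 4 held 3 or more UMIs summed over Dct, Pmel and Tyrp1, together 18 UMIs with 16 of Dct, and none of the 4 held a transgene UMI although they held 10136 to 33333 UMIs each. No such cell was seen among 43 untreated and 75 regressed cells of that cluster, whose median depths were 11361 and 889 UMIs.

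Where Mlana was found depended on the tumor. Stroma held 32 of 35 Mlana UMIs in the untreated and 248 of 287 in the progressed library, while in the regressed library 37 of 55 lay in tumor cells (67.3%, 53.3 to 79.3) and 15 in stroma. Of the 287 Mlana UMIs in the progressed library, 236 lay in the cluster Stroma6, in 153 of its 1255 cells (12.2%), and 35 in tumor cells. The level of Mlana in progressed Stroma6 was 41.5 CPM (36.3 to 47.1), against 1.91 CPM (0.767 to 3.93) in progressed Stroma4, 0.542 CPM (0.112 to 1.58) in Stroma5 and 1.10 CPM (0.133 to 3.97) in Stroma7. Among the Stroma6 cells 101 held 1 UMI of Mlana, 32 held 2, 13 held 3, 4 held 4, 2 held 5 and 1 held 6. Regressed Stroma6 was only 13 cells with 2 UMIs, both in 1 cell. Untreated Stroma6 held 4 UMIs in 83 cells, 8.44 CPM (2.30 to 21.6), and untreated Stroma2 27 UMIs in 21 of 1144 cells, 4.59 CPM (3.03 to 6.68).

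These Stroma6 cells did not hold the rest of the pigment program. The 153 cells with a Mlana UMI held 0 UMIs of Tyr, Tyrp1, Pmel and Slc45a2 and 1 of Dct among 656475 UMIs. Mitf stood at 28.9 CPM (17.4 to 45.2) in them and at 29.2 CPM (24.7 to 34.3) in the 1102 Stroma6 cells without Mlana, and the transgene tWPRE at 18.3 CPM (9.45 to 31.9) and 24.6 CPM (20.5 to 29.4). Both values of the transgene lay at or under the level of stroma as a whole. Thinned to 1000 UMIs, 60 of 1249 progressed Stroma6 cells held a Mlana UMI, 4.80% (3.69 to 6.14), against 2 of 814 in Stroma4 and 1 of 753 in Stroma5. On the build of the files no other annotated gene of GENCODE vM21 overlapped Mlana. The nearest were Ermp1, 49409 bases upstream, and 9930021J03Rik, 5768 bases downstream, both on the minus strand, while Mlana lies on the plus strand and counting used the sense strand.

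Mitf was the most widely found of the 10 genes, and in clusters of 20 or more cells its highest level was in mast cells, although the 14 pigment-rich cells together stood at 551 CPM (382 to 770), against 33.9 CPM in other tumor cells. In clusters of at least 20 cells it stood at 194 CPM (150 to 248) in regressed Mastcells and 172 CPM (128 to 226) in progressed ones, in 39 of 106 and 35 of 85 cells. The 16 untreated Mastcells stood at 82.7 CPM (26.9 to 193), an interval that overlaps both. The Tumor2 clusters of 4 cells stood at 162 CPM (65.0 to 333) in the untreated and 177 CPM (21.4 to 638) in the progressed tumor, also within the range of mast cells. Regressed Tumor2 came next in that library at 92.1 CPM (66.1 to 125). Its 7 pigment-rich cells held 3, 7, 2, 4, 3, 0 and 0 of the 49 Mitf UMIs of regressed tumor cells. Regressed Tumor1, with no pigment-rich cell, stood at 53.0 CPM. Regressed Bloodvessel stood at 74.6 CPM (42.7 to 121), an interval that overlaps that of Tumor2. Regressed Stroma8, in which 16 cells held at least 1000 UMIs, lay between Tumor2 and Bloodvessel at 83.7 CPM. Over the 15 clusters with at least 10 cells in each of the 3 tumors, which leaves out Tumor2, ordered by the mean over tumors, Mastcells came first at 150 CPM ± 59.0 (SD over 3 tumors), then Stroma8 at 57.6 ± 26.1 and Tumor1 at 36.2 ± 16.8. The spreads of Stroma8, Tumor1, Stroma6 (34.2 ± 12.3) and Bloodvessel (31.3 ± 37.7) overlap, so their order is not resolved. The spread of Tumor1 also overlaps those of Macrophages (30.5 ± 9.19) and Monocytes1 (30.04 ± 15.9). The lowest means were those of NK_T at 9.29 ± 16.1 and NK_T_Cytolytic at 8.56 ± 14.8.

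Mitf in the regressed tumor was higher in stroma as well, at 40.5 CPM (35.7 to 45.7), than in untreated and progressed stroma at 16.9 CPM (14.8 to 19.2) and 19.3 CPM (17.3 to 21.5). Immune cells stood at 16.0 CPM in the untreated tumor, 55.8 in the regressed and 31.9 in the progressed one. Tumor cells held 8.75% of the Mitf UMIs of the regressed library, 4.08% of the untreated one's and 3.38% of the progressed one's. Mc1r was found at a low level throughout, at 4.55, 8.41 and 6.77 CPM in untreated, regressed and progressed stroma and 6.00, 6.93 and 8.97 CPM in immune cells, and 2.75%, 6.32% and 2.22% of its UMIs lay in tumor cells.

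**Figure D5:**
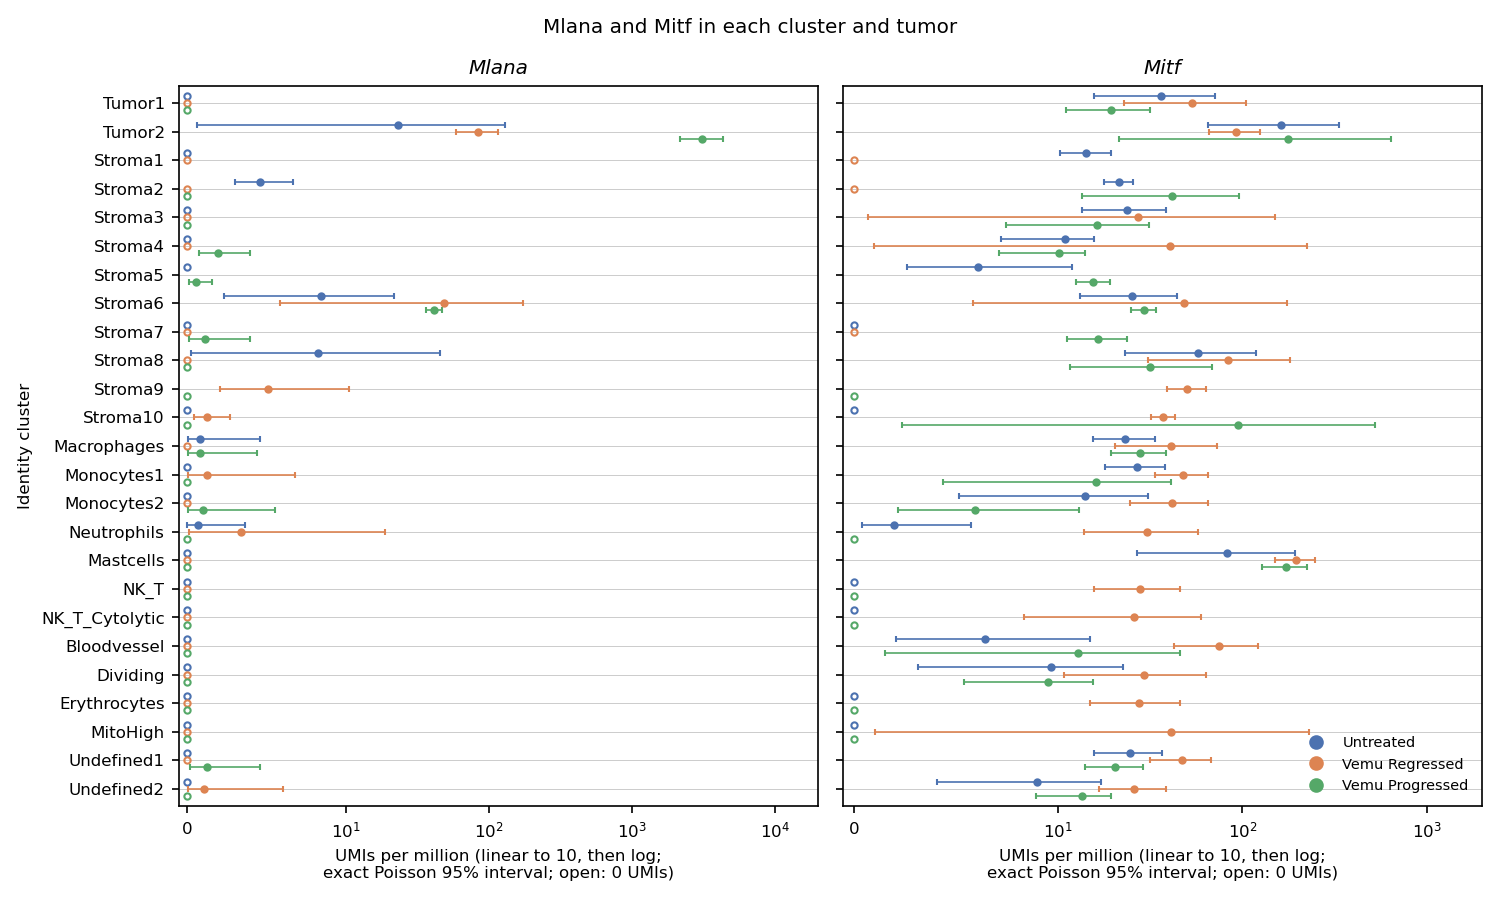
CPM of Mlana (left) and Mitf (right) in each cluster (rows) of the untreated, regressed and progressed tumor (colors), with exact Poisson 95% intervals, an axis that is linear to 10 and log above, and open circles for 0 UMIs. Mlana stands at 41.5 CPM in progressed Stroma6 and at 0 in Tumor1 of each tumor, and Mitf reaches 194 and 172 CPM in regressed and progressed Mastcells.

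Because Mitf, Mc1r and Mlana lie in other cells, the share of pigment UMIs that fell in tumor clusters depended on the gene. For the 10 genes it was 25.7% (22.5 to 29.1) in the untreated, 52.6% (50.4 to 54.8) in the regressed and 24.1% (21.8 to 26.5) in the progressed library. For Dct, Pmel and Tyrp1 together it was 81.6% (75.5 to 86.8), 74.9% (72.4 to 77.3) and 82.9% (78.2 to 87.0), while tumor cells made up 1.17%, 11.004% and 3.30% of all cells. By gene, 90.4% of untreated, 76.7% of regressed and 88.5% of progressed Dct UMIs lay in tumor cells, and 51.1%, 71.7% and 26.9% of Pmel UMIs.

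The features whose values per cell were most like those of the 10 genes were Ptgds (Pearson's r = 0.24), Mcoln3 (0.21), Cited1 (0.17), Pax3 (0.17), Fstl4 (0.17), Gpnmb (0.15), Syngr1 (0.13), Mcpt4 (0.13), Kit (0.13), Tpsb2 (0.12), Cma1 (0.12) and Tpsab1 (0.12), over 12670 cells that share libraries and differ in depth. All of these values are weak and given as a description. Mcpt4, Tpsb2, Cma1 and Tpsab1 are mast cell proteases. Against Dct, Pmel and Tyrp1 alone, a choice made after the values were seen, the leading features were Ptgds (0.51), Mcoln3 (0.44), Pax3 (0.37), Cited1 (0.36) and Fstl4 (0.32). Ptgds, the prostaglandin D synthase, had 234 of its 265 UMIs in 11 of the 14 pigment-rich cells, and without those cells its r with the 10 genes was -0.01. Mcoln3, a cation channel of endosomes and lysosomes, had 23 of its 33 UMIs in 8 of them.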

How the data were processed

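Cells of 3 mouse melanomas, dissociated with enzymes and sorted, were captured with a droplet kit that counts transcript ends. The authors aligned reads to GRCm38 with GSNAP, counted sense exonic reads that mapped once, collapsed molecular identifiers that differed by 1 base and dropped small barcodes, and deposited counts of UMIs per gene and cell, not normalized, with a cluster name per cell from Seurat 2.2.0. The deposited cluster and tumor names are labels of another kind, used as given. Sums of the deposited counts exceeded the deposited totals per cell by 5.02%, and the sums were used. No cell name was shared between libraries, and no doublet caller was run.

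UMIs were summed over the cells of a cluster and tumor and divided by their total (CPM). Intervals are exact Poisson for levels, Clopper-Pearson for shares, conditional binomial for ratios and Newcombe for differences of shares, at 95%, and cover counting error only. A count of 0 was set to a floor of 3 UMIs for bounds. Features with at least 10 UMIs in the tumors compared were counted as higher or lower past 2-fold. Cells were thinned to 1000 UMIs where shares were compared across depths, which left out 92 untreated, 703 regressed and 55 progressed cells. Gene ratios were scaled by total UMIs, with the TMM factors of edgeR 4.0.16 as an alternative. With 1 tumor per group no test was made between tumors. Scripts were tested on simulated data. Python 3.11.15, scipy 1.17.1 and pandas 2.3.3 were used.

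The genes, marker lists and pathway lists were chosen with earlier results of these data known. Named genes were the 10 genes themselves, the listed genes past 2-fold, and the 12 features of highest Pearson correlation, over log values per cell, among those with at least 30 UMIs. The genes named for their level in pigment-rich cells and those named from the Dct, Pmel and Tyrp1 correlation were chosen after their values were seen. One item of the model's description is not reported here.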

Additional observations from a re-analysis of the deposited data

How the results depend on the processing

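The summed level of the 10 genes in tumor cells turned on few cells. Its log2 ratio of regressed to untreated, 1.34, became 1.77 in cells of at least 1000 UMIs, 1.01 after thinning, 0.15 with equal weight per cell, 0.79 in Tumor1 alone, 5.27 in cells with a transgene UMI, 2.11 without the richest cell of each tumor, 0.51 without pigment-rich cells and 1.06 without Dct, Pmel and Tyrp1, and turned to -0.99 without the 5% of tumor cells with the most UMIs. In the same order the ratio of progressed to regressed, -2.23, became -2.65, -1.18, -0.28, -1.07, -2.62, -4.89, -1.003 and -1.21, and turned to 0.037 (-0.23 to 0.30), an interval that includes 0. Leaving out the 5% of tumor cells with the most UMIs kept both untreated pigment-rich cells, at 6637 and 9724 UMIs. Untreated Tumor1 cells of 14417 to 17224 UMIs were deeper. The regressed pigment-rich tumor cells, at 2205 to 6393 UMIs, were deeper than most of their cluster, and how many were left out was not counted. The ratio of progressed to untreated, -0.88, became -0.17 after thinning, -0.13 with equal weight, -0.28 in Tumor1, -2.78 without the richest cells, -0.49 without pigment-rich cells and -0.15 without Dct, Pmel and Tyrp1, and turned to 2.65 in cells with a transgene UMI, a choice that leaves out both untreated pigment-rich cells. The causes of the other shifts were not tested.

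The share of tumor-cell pigment UMIs in pigment-rich cells was 71.9% in the untreated and 90.3% in the regressed tumor after thinning, and 95.9%, 98.1% and 93.98% in the untreated, regressed and progressed tumor without Mitf. The share in tumor clusters was 48.6%, 69.6% and 38.2% without Mitf, and 54.9% in regressed cells of at least 1000 UMIs. Under alternatives chosen after seeing the data it was 80.9%, 74.4% and 82.3% without Mitf, Mc1r and Mlana, and 2.74%, 5.88% and 3.48% without pigment-rich cells. With tdTomato alone the untreated difference by transgene was 21.7 percentage points (-21.3 to 63.7). With no minimum of UMIs, 1 gene was lower in regressed than untreated and 5 in progressed than untreated tumor cells. In 56 other pairs of a compared result and an alternative the value did not move past its interval or, for counts, its margin. Some of these intervals were wide. The progressed difference by transgene, -5.13 points (-50.4 to 16.5), changed sign within its interval. It became 5.98 with at least 2 transgene UMIs, 7.81 with tdTomato alone and 10.9 without Mitf. For the untreated difference by transgene without Mitf, the interval came to leave out 0 (-57.8 points, -85.5 to -10.4), from 3 cells without a transgene UMI. TMM factors were 1.02, 1.04 and 0.95. No paired analysis was possible because each group was 1 tumor with no replicate number. The depth of single cells limits Tyr, Slc45a2, Oca2, Gpr143 and Mc1r.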
